A study of Mus musculus with 6 samples.

Results

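The genes examined here make cholesterol or set the rate at which it is made, and they were taken as the 8 named genes Hmgcs1, Sqle, Idi1, Fdps, Fdft1, Srebf1, Srebf2 and Insig1 of the 19060 genes in the deposited count table. Bulk RNA was sequenced from the proximal end of mouse incisors, the end that holds the stem cells of this continuously growing tooth, in 3 control and 3 mutant samples. Control mice were Fgfr1fl/fl, with both alleles of the FGF receptor gene Fgfr1 flanked by loxP sites, and are called wild type in the sample labels. Mutant mice were Gli1-Cre;Fgfr1fl/fl, carrying in addition a tamoxifen-inducible Cre (Gli1CreER) that acts only in cells expressing Gli1, a mark of incisor mesenchymal stem cells. The mice were 1 month old, and tissue was collected 1 week after tamoxifen, which the controls are described as receiving too. The whole dissected piece was sequenced, so fewer cells of a type and less RNA per cell cannot be told apart in any value below.

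Cells build cholesterol from acetyl-CoA through the mevalonate pathway. Hmgcs1 encodes the cytosolic HMG-CoA synthase, Idi1 the isomerase that interconverts the isoprenoid units, Fdps the synthase of farnesyl diphosphate, Fdft1 squalene synthase and Sqle squalene epoxidase. The genes of these enzymes are classical targets of the sterol regulatory element binding proteins (SREBPs), membrane-bound precursors encoded by Srebf1, better known for fatty acid genes, and Srebf2, better known for cholesterol genes. When sterols are plentiful, the retention protein INSIG1 holds SREBP and its escort SCAP in the endoplasmic reticulum, and when sterols are scarce the precursors travel to the Golgi, where the site-1 and site-2 proteases (Mbtps1 and Mbtps2) release the active factor.

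The promoters of 3 of these genes are shown because they carry the letters by which this feedback is usually recognised, or belong to the factor itself. Each is 150 bases of RefSeq sequence on GRCm38.p6 upstream of the start that RefSeq annotates, read 5′ to 3′ on the gene's strand (plus in all 3). Capitals mark matches to the letters searched on both strands, namely an SRE-like sequence (TCACNCCAC), the E-box CACGTG, the NF-Y box CCAAT and the GC box GGGCGG. Hmgcs1 is given for chr13:119690201-119690350, Srebf2 for chr15:82147031-82147180 and Insig1 for chr5:28071213-28071362. Counted from the RefSeq start, the printed bases run from -150 to -1 in Hmgcs1, from -238 to -89 in Srebf2 and from -199 to -50 in Insig1.
Hmgcs1: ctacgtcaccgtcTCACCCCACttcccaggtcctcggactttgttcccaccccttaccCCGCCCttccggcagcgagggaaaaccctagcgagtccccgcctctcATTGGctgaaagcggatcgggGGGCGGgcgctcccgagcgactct
Srebf2: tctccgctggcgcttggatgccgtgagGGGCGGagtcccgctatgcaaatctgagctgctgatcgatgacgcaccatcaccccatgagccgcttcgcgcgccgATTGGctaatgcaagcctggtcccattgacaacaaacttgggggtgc
Insig1: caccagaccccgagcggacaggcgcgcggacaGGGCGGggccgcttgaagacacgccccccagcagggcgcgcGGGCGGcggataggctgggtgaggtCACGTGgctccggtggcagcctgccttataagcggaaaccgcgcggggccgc

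The SRE-like letters of Hmgcs1 began 137 bases before its RefSeq start, and the E-box of Insig1 began 101 bases before its own. Over the 300-base windows of all 32851 promoters in the table, 1.24% held the SRE-like letters, 7.15% the E-box, 37.4% the NF-Y box and 35.7% the GC box. In Srebf2 the NF-Y letters lay on the minus strand, starting at -135. RefSeq windows were matched for 5 of the 8 genes (Hmgcs1, Idi1, Srebf1, Srebf2 and Insig1), with 3 windows for Srebf1. Idi1, which is not printed, held NF-Y letters at -45 and -14. A match is a description of the sequence, and binding was not measured.

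The 3 control samples held 32292649, 31060222 and 32712448 counts and the 3 mutant samples 5276557, 11819576 and 11358282. Every control sample was thus deeper than every mutant sample. The sample names also follow a different scheme in each genotype, with some of the same S numbers in both. The labels do not say whether the genotypes were prepared or sequenced together. Any such difference cannot be told apart from genotype. Genes listed at 0 made up 3.95, 3.83 and 3.96% of the table in control against 30.3, 17.1 and 19.7% in mutant incisors. Levels are given as CPM, counts relative to library size after upper-quartile scaling, and 3 counts, the upper limit that a count of 0 allows, correspond to 0.655 CPM in mutant sample 1 and at most 0.302 CPM in every other sample. All 8 genes lay far above that limit, with between 169 counts (Srebf1, mutant sample 1) and 7090 counts (Srebf2, control sample 3), and all 8 passed the filter on low counts that left 15826 genes tested. Fgfr1, the deleted gene, had 529, 924 and 434 CPM in control and 148, 318 and 262 CPM in mutant samples, counted over the whole gene and not over the floxed exons alone. No Fgfr1 value of a mutant sample reached the lowest control value, and the log2 fold change was -1.37 (SE 0.40; edgeR, adjusted p = 0.0881).

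None of the 8 genes passed an adjusted p of 0.05 when the genotypes were compared with the quasi-likelihood test of edgeR, against 3.72% of all genes tested that were called higher and 3.06% called lower. The 5 enzymes were mixed in direction, with Idi1 and Hmgcs1 having higher means and Fdft1, Fdps and Sqle lower means in the mutant samples. Among the regulators, Srebf1 and Srebf2 were lower in all 3 mutant samples than in any control sample, while Insig1 overlapped. The median log2 fold change of the 8 genes was -0.30, beside -0.040 over all genes tested.

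**Figure D1:**
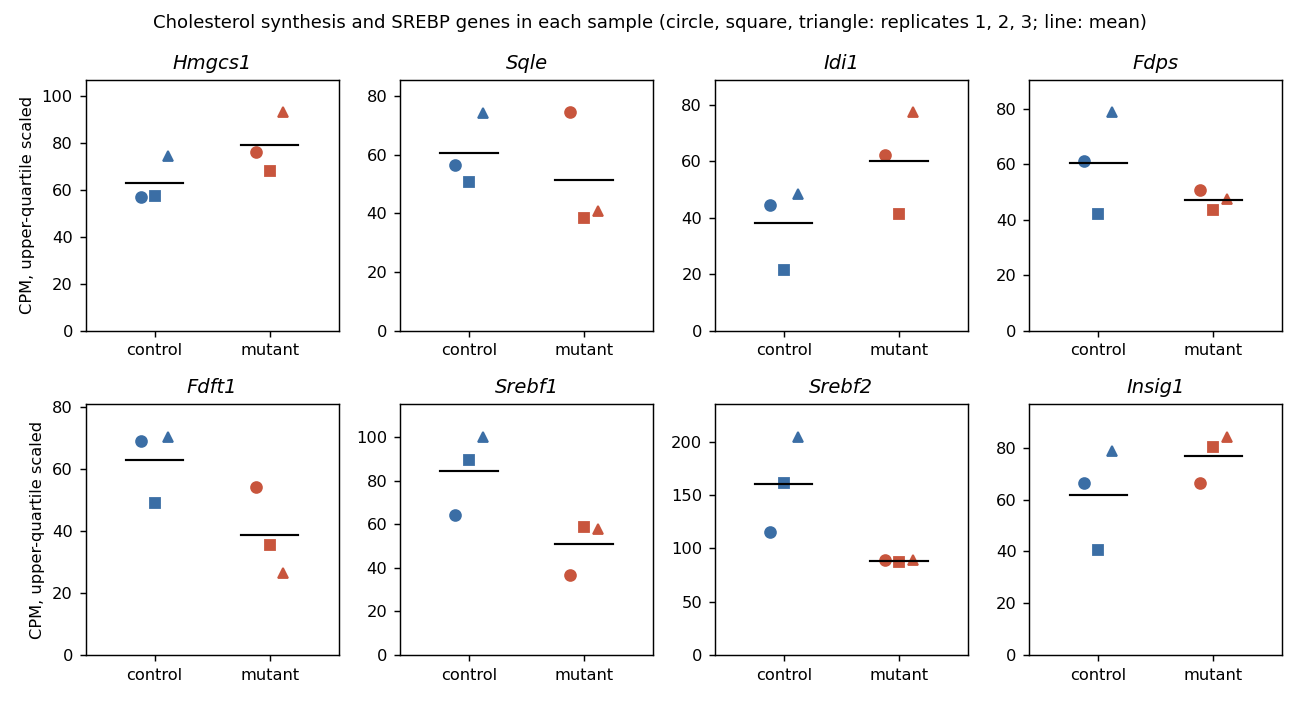
Level of each of the 8 genes in every sample, in CPM after upper-quartile scaling on a linear axis that starts at 0 (circle, square and triangle for replicates 1, 2 and 3; horizontal line for the group mean, n = 3). Only the Srebf1 and Srebf2 panels show every mutant sample below every control sample.

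Srebf2 (chromosome 15, 82147181 to 82205379, GRCm38) had 115, 162 and 205 CPM in control against 88.8, 87.1 and 89.6 CPM in mutant incisors. The controls were spread over a wide range, with control sample 3 the highest, whereas the 3 mutant samples were nearly equal and all lay below the lowest control. The log2 fold change was -0.86 (SE 0.26; edgeR, adjusted p = 0.100; the unadjusted p was 0.0105). Srebf1 (chromosome 11, 60199089 to 60222581) had 64.3, 89.5 and 100.2 CPM in control and 36.9, 58.9 and 57.7 CPM in mutant samples. Here too the groups did not overlap, but the gap between mutant sample 2 and control sample 1 was narrow. The log2 fold change of Srebf1 was -0.72 (SE 0.28; edgeR, adjusted p = 0.195; the unadjusted p was 0.0326).

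Both SREBP genes therefore passed the threshold used by the study (p below 0.05 before adjustment, with a difference above 1.5-fold) on the lower side, which 8.92% of all genes tested also did, while 0 of the 8 genes passed it on the higher side, against 10.9% of all genes. In 2 of the 8 genes every mutant value was below every control value, which held for 16.3% of all genes tested, and in 0 of the 8 every mutant value was above, which held for 14.1%. Which genes passed the study's threshold depended on single samples. Without control sample 3, 0 of the 8 genes passed, with log2 fold changes of -0.64 for Srebf2 (edgeR, adjusted p = 0.403; unadjusted, 0.0542) and -0.58 for Srebf1 (adjusted p = 0.567; unadjusted, 0.127). Without mutant sample 1, the shallowest, Srebf2 was at -0.88 (edgeR, adjusted p = 0.132; unadjusted, 0.0284) and Srebf1 at -0.55 (adjusted p = 0.269; unadjusted, 0.0916), and without control sample 2 Srebf1 was at -0.68 (adjusted p = 0.398; unadjusted, 0.0713). In both of these fits the enzyme gene Fdft1 passed in place of Srebf1, at -1.04 without mutant sample 1 (edgeR, adjusted p = 0.069; unadjusted, 0.00903) and at -0.86 without control sample 2 (adjusted p = 0.312; unadjusted, 0.0425). When the control counts were thinned to the mean total of the mutant samples, 9484797, Srebf1 and Srebf2 were again the 2 genes lower at the study's threshold.

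Insig1 (chromosome 5, 28071363 to 28078662), the sterol-responsive retention gene whose promoter is printed above, had 66.4, 40.6 and 78.9 CPM in control and 66.6, 80.3 and 84.3 CPM in mutant samples. Control sample 2 was the lowest of all, and the other 5 samples overlapped between the genotypes. Its log2 fold change was 0.32 (SE 0.29; edgeR, adjusted p = 0.626).

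Among the enzymes, Fdft1 (chromosome 14, 63145150 to 63179578) came closest to the threshold. It had 68.9, 48.9 and 70.3 CPM in control and 54.1, 35.3 and 26.4 CPM in mutant samples, and mutant sample 1 lay above control sample 2. The log2 fold change was -0.71 (SE 0.32; edgeR, adjusted p = 0.273). Fdft1 overlaps Ctsb, a cathepsin gene on the opposite strand, and the sources used here do not state whether strand was used in counting, so reads from the shared stretch could have gone to either gene. The same limit holds for Srebf1 with Rai1, for Hmgcs1 with the antisense gene Gm48342 and for Scap with 5830462I19Rik, and Fdps shares a stretch with Gm43738 on its own strand. Of genes reported below, it also holds for Lss (4930483K19Rik), Pdss1 (Abi1), Ggps1 (Arid4b), Npc1 (Rmc1), Fbxw7 (Gm37240), Acss2 (Ggt7 and Gss) and Fntb (Gpx2 and Rab15). On their own strand, Fntb overlaps Churc1 and Mbtps2 overlaps Yy2.

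Idi1 (chromosome 13, 8885501 to 8892451) had the highest positive fold change of the 8 genes. Its values were 44.7, 21.4 and 48.4 CPM in control and 62.2, 41.3 and 77.4 CPM in mutant samples, a log2 fold change of 0.66 (SE 0.38; edgeR, adjusted p = 0.393). Mutant sample 2 lay within the control range, and control sample 2 was lower than any other sample. Hmgcs1 (chromosome 13, 119690379 to 119708260) had 56.7, 57.4 and 74.1 CPM in control and 76.0, 67.8 and 92.8 CPM in mutant samples. Mutant sample 2 again lay within the control range, and the log2 fold change was 0.33 (SE 0.23; edgeR, adjusted p = 0.512).

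Among the 5 enzymes, Fdps and Sqle had the smallest fold changes relative to their standard errors. Fdps (chromosome 3, 89093588 to 89101959) had 61.2, 42.0 and 78.8 CPM in control and 50.9, 43.5 and 47.5 CPM in mutant samples. All 3 mutant values of Fdps lay inside the control range, and the log2 fold change was -0.36 (SE 0.28; edgeR, adjusted p = 0.557). Sqle (chromosome 15, 59315077 to 59331192), the epoxidase that commits squalene to sterols, had 56.5, 50.8 and 74.1 CPM in control and 74.4, 38.3 and 40.9 CPM in mutant samples. Mutant sample 1 was as high as the highest control while the other mutant samples lay below all controls, and the log2 fold change was -0.24 (SE 0.32; edgeR, adjusted p = 0.756).

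Summed over the 5 enzymes, the level was 288, 221 and 346 CPM in control and 318, 226 and 285 CPM in mutant samples, or 285 ± 62.6 against 276 ± 46.3 (mean ± SD, n = 3). The difference between these means was smaller than either SD. The 3 regulators summed to 246, 292 and 384 CPM in control and 192, 226 and 232 CPM in mutant samples, or 307 ± 70.4 against 217 ± 21.4. These sums did not overlap, and Srebf2 is the most abundant of the 3 in CPM.

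Per kilobase of the longest annotated transcript, Srebf2 had the highest control level at 31.6 ± 8.85 CPM per kilobase (SD, n = 3), followed by Insig1 at 23.0 ± 7.22, Fdps at 20.5 ± 6.24, Srebf1 at 19.7 ± 4.29, Hmgcs1 at 18.1 ± 2.84, Fdft1 at 16.96 ± 3.23, Sqle at 13.5 ± 2.72 and Idi1 at 12.6 ± 4.83. Neighbours in this order differed by less than the larger of their SDs, except Fdft1 over Sqle, where the gap was slightly wider than either. In the mutant samples Insig1 came first at 28.6 ± 3.45 CPM per kilobase, then Hmgcs1 at 22.8 ± 3.68, Idi1 at 19.9 ± 5.98, Srebf2 at 17.4 ± 0.252, Fdps at 16.0 ± 1.25, Srebf1 at 11.9 ± 2.88, Sqle at 11.5 ± 4.51 and Fdft1 at 10.4 ± 3.83. The neighbours set apart by more than their SDs in the mutant order were Insig1 over Hmgcs1, Srebf2 over Fdps and Fdps over Srebf1. Srebf2 thus held the first place in control and the fourth in mutant samples, while Idi1 was last in control and the third in mutant samples, although neither gene passed the adjusted test.

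**Figure D2:**
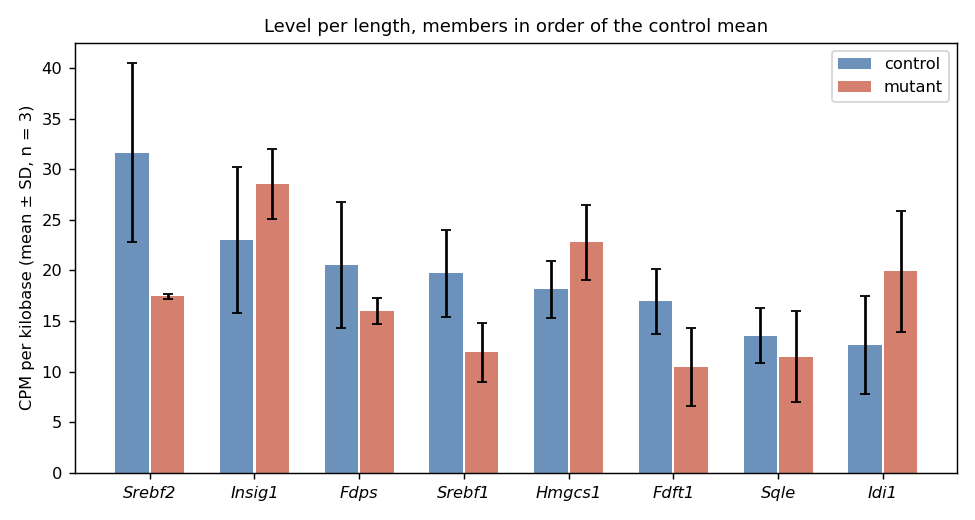
Mean level of the 8 genes in CPM per kilobase of the longest annotated transcript, in control and mutant samples (bars start at 0; error bars are SD, n = 3), ordered by the control mean. Srebf2 is at 31.6 in control and 17.4 in mutant samples, and the error bars of the genotypes are apart for Srebf1 and Srebf2 and overlap for the other 6 genes.

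The mean of the standardised log2 levels of the 5 enzymes did not separate the genotypes. It was lowest in the samples numbered 2, at -0.775 in control sample 2 and -0.638 in mutant sample 2, and highest in control sample 3 at 0.851. The remaining values were 0.114 in control sample 1, 0.492 in mutant sample 1 and -0.043 in mutant sample 3. Against this profile, over 6 samples, Pearson's r was 0.86 for Fdps, 0.79 for Sqle, 0.60 for Idi1, 0.52 for Fdft1 and 0.39 for Hmgcs1, each of which contributes to it. The regulators, which do not contribute, had r of 0.47 for Insig1, 0.25 for Srebf2 and -0.081 for Srebf1.

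Of 9707 genes with a mean of at least 10 CPM, those most like the enzyme profile over the 6 samples were Lars2 (r = 0.96), Tmem97 (0.96), Cyp26a1 (0.96), Ddost (0.95) and CT010467.1 (0.95). Tmem97, the sigma-2 receptor, which is also in the list of uptake and transport genes below, had 29.9, 16.1 and 37.8 CPM in control and 38.8, 13.8 and 23.6 CPM in mutant samples. It was lowest in sample 2 of each genotype, as the mean profile of the enzymes was, although not each enzyme on its own. Lars2 had 1326, 349 and 2028 CPM in control and 2001, 326 and 668 CPM in mutant samples, above every value of the enzymes. CT010467.1 was higher still, at 21750, 10600 and 48180 CPM in control and 50900, 15440 and 26410 CPM in mutant samples. These values describe likeness over few samples that differ in depth, and no test was made of them. Likeness of this kind is not read as shared regulation.

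The wider pathway was described with lists of related genes. In the list of 21 enzymes from acetyl-CoA to cholesterol, which contains the 5 enzymes above, 0 passed the adjusted test in either direction and 1 (Ebp, higher) passed the study's threshold, which 10.9% of all genes passed on the higher and 8.92% on the lower side. By the adjusted test, 3.72% of all genes were higher and 3.06% lower. The median log2 fold change of the list was -0.27, with 9 genes above 0 and 12 below. Ebp, the sterol isomerase, had 38.0, 28.6 and 44.1 CPM in control and 99.96, 53.6 and 58.8 CPM in mutant samples, with no overlap (log2 fold change 0.94, SE 0.32; edgeR, adjusted p = 0.138). Without mutant sample 1, the highest, it was 0.59 (edgeR, adjusted p = 0.222).

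Msmo1, which removes methyl groups from sterol intermediates, was the other enzyme gene with all mutant samples above all controls, at 38.2, 20.6 and 41.9 against 55.4, 45.5 and 63.6 CPM (log2 fold change 0.71; edgeR, adjusted p = 0.278). Mvk, mevalonate kinase (-0.84; adjusted p = 0.268), and Lss, lanosterol synthase (-0.61; adjusted p = 0.479), were among the enzyme genes whose mutant values all lay below the lowest control. In the list of 21 enzymes, groups were separate for 2 on the higher and 3 on the lower side, beside 14.1% and 16.3% of all genes. Dhcr7, which makes the last double-bond reduction of one branch, was at -0.60 (edgeR, adjusted p = 0.445) and overlapped.

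**Figure D3:**
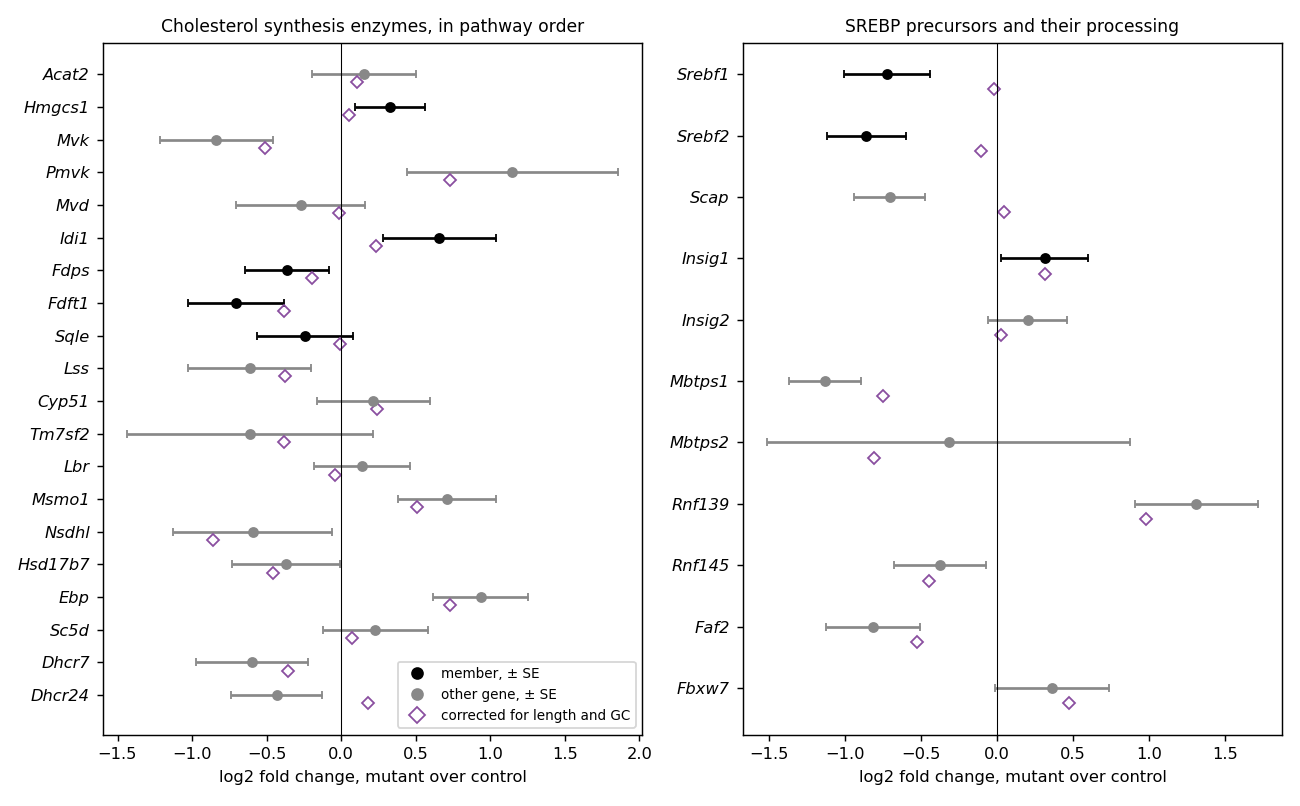
Log2 fold change of mutant over control for enzymes in pathway order and for genes of SREBP and its processing, of those reported here (filled circles, bars are ± SE; black for the 8 genes examined here, grey for others), with the value after correction for transcript length and GC content (open diamonds). Enzymes scatter on both sides of 0, and the diamonds of Srebf1, Srebf2 and Scap lie close to 0.

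The 12 genes of SREBP and its processing, which include Srebf1, Srebf2 and Insig1, had a median log2 fold change of -0.52, with 4 genes above 0 and 8 below. In the adjusted test 1 was called lower and 0 higher, and at the study's threshold 6 were lower and 1 was higher, beside 3.06% lower and 3.72% higher of all genes by the adjusted test and 8.92% lower and 10.9% higher at the study's threshold. Mbtps1, the site-1 protease that makes the first cut of SREBP and also processes other membrane-bound factors such as ATF6, fell in the mutant samples. It had 236, 292 and 245 CPM in control and 123, 134 and 95.6 CPM in mutant samples, so that every mutant value was well below the lowest control. The log2 fold change was -1.13 (SE 0.24; edgeR, adjusted p = 0.0464). The call lay close to the threshold and was lost under 11 of 15 other settings, over which the adjusted p ran from 4.46e-05 (DESeq2) to 0.190 (without control sample 3).

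Scap, the escort of SREBP, had 60.0, 78.4 and 81.5 CPM in control and 45.4, 40.0 and 49.6 CPM in mutant samples. The groups were separate, and the log2 fold change was -0.70 (SE 0.23; edgeR, adjusted p = 0.129). Rnf139 (TRC8), a ubiquitin ligase of the endoplasmic reticulum, was at 1.31 (SE 0.40; edgeR, adjusted p = 0.106). It had 29.5, 18.5 and 25.7 CPM in control and 89.9, 31.6 and 62.2 CPM in mutant samples, but it overlaps Tatdn1 on the opposite strand and Gm49356 on its own, so that its value is uncertain however strand was handled. Faf2, an adaptor in the degradation of proteins of the endoplasmic reticulum, was at -0.82 (edgeR, adjusted p = 0.180). Fbxw7, the ligase that marks nuclear SREBP for destruction, was at 0.36 (adjusted p = 0.679). Mbtps2, the site-2 protease, was listed at 0 in mutant sample 1 and had 6.92 and 20.9 CPM in the other mutant samples, beside 11.1, 12.04 and 11.8 CPM in the controls.

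Of 14 fatty acid and NADPH genes known as SREBP-1 targets, 1 was called lower and 0 higher by the adjusted test, and 2 were lower at the study's threshold (median log2 fold change -0.30), with 3.06% and 8.92% of all genes lower by these rules. Acly, the ATP citrate lyase that supplies cytosolic acetyl-CoA to both sterol and fatty acid synthesis, fell from 104, 121 and 113 CPM in control to 69.4, 48.4 and 60.9 CPM in mutant samples. The groups of Acly were far apart relative to their spread (log2 fold change -0.92, SE 0.22; edgeR, adjusted p = 0.0487), but its adjusted p ran from 0.00411 to 0.344 over the other settings and was above 0.05 in 12 of 15, among them each in which 1 sample was left out. Fads2, a desaturase, was at -0.80 (edgeR, adjusted p = 0.237). Scd2, a stearoyl-CoA desaturase and the most abundant gene of the list, had 645, 899 and 1211 CPM in control and 576, 556 and 624 CPM in mutant samples (log2 fold change -0.65; edgeR, adjusted p = 0.285). Elovl6 (0.58; adjusted p = 0.434), Elovl5 (0.14; adjusted p = 0.779) and Acss2 (0.45; adjusted p = 0.844) had the smallest p among genes above 0 in this list. Groups were separate for Acly, Scd2 and Acaca (-0.98; adjusted p = 0.326), all lower, beside 16.3% of all genes.

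None of the 7 uptake and transport genes tested passed either threshold or had separate groups (median log2 fold change -0.14), beside 3.06% lower and 3.72% higher of all genes by the adjusted test, 8.92% and 10.9% at the study's threshold, and 16.3% and 14.1% with separate groups. Scarb1, a lipoprotein receptor, was at -0.51 (edgeR, adjusted p = 0.498), Npc1 at -0.28 (adjusted p = 0.766), Stard4 at 0.094 (adjusted p = 0.914), Lipa at 0.10 (adjusted p = 0.920) and Npc2 at 0.058 (adjusted p = 0.953).

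Among the 9 genes of sterol sensing by LXR and of efflux that were tested, 0 passed either threshold (median -0.66), beside the same shares over all genes. Groups were separate for 1 gene on the higher and 3 on the lower side, which held for 14.1% and 16.3% of all genes. The 2 LXR receptor genes had opposite signs, with Nr1h2 at -0.53 (edgeR, adjusted p = 0.264) and Nr1h3 at 1.39 (adjusted p = 0.316), and both had separate groups. The transporters Abcg1 (-0.66; adjusted p = 0.337) and Abcg4 (-2.34; adjusted p = 0.289, listed at 0 in mutant sample 1) were lower in every mutant sample, while Soat1 (0.49; adjusted p = 0.393) and Apoe (0.43; adjusted p = 0.676) overlapped. Of 8 genes in the isoprenoid branch that leads from farnesyl diphosphate to other products, 0 passed the adjusted test. At the study's threshold 1 was lower, Dhdds of dolichol synthesis (-0.70, edgeR, adjusted p = 0.202), against 8.92% of all genes. By the adjusted test, the shares of all genes were 3.06% lower and 3.72% higher. Groups were separate for 2 of these genes on the higher and 3 on the lower side, beside 14.1% and 16.3% of all genes. Nus1, the partner subunit of Dhdds, was at -0.50 (adjusted p = 0.340) and Fntb, a farnesyltransferase subunit, at -0.52 (adjusted p = 0.562), also with separate groups. Pggt1b, at 0.70 (adjusted p = 0.290), and Pdss1, at 0.71 (adjusted p = 0.712), were separate in the other direction, with every mutant value above every control value. Ggps1 was at 0.60 (adjusted p = 0.395), Fnta at 0.44 (adjusted p = 0.455) and the median of the list at -0.031.

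Over the 71 pathway genes tested, 2 passed the adjusted test (Mbtps1 and Acly, both lower), and 9 lay lower and 2 higher at the study's threshold. Over all genes tested the shares were 3.06% lower and 3.72% higher by the adjusted test, and 8.92% lower and 10.9% higher at the study's threshold. Without control sample 3, the adjusted test called 0 and the study's threshold 2 lower and 2 higher. The library that was left out is the one with the highest Srebf1 and Srebf2 levels.

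Fold changes over all protein-coding genes moved with the GC content and the length of the transcript. The median log2 fold change was 0.38 in the quintile of lowest GC content and -0.42 in the quintile of highest GC content, and 0.33 in the quintile of shortest and -0.26 in that of longest transcripts. Idi1 (41.9% GC) and Hmgcs1 (43.1%) sit at the low-GC end, Insig1 (48.2%), Sqle (48.6%), Fdps (50.6%) and Fdft1 (51.8%) in the middle, and Srebf1 (58.4%) and Srebf2 (57.9%) in the top quintile, as does Scap (59.1%). Ordered by GC content, the 8 genes went from the highest to the lowest fold change, except that Srebf1 and Srebf2 exchanged places.

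**Figure D4:**
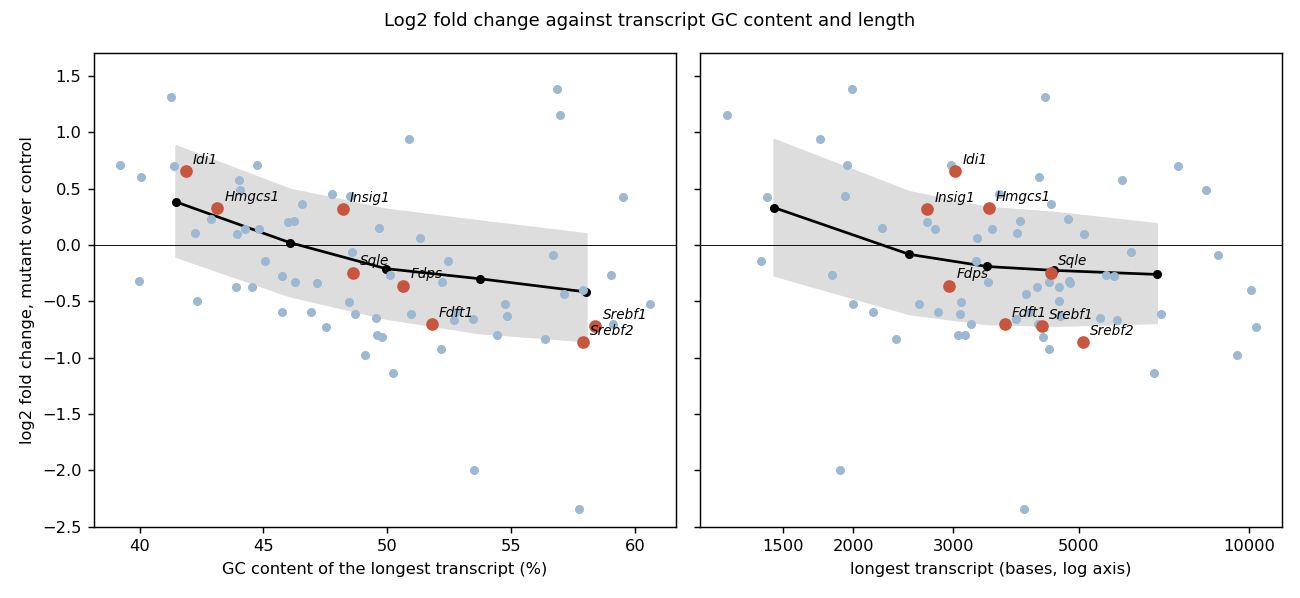
Log2 fold change of mutant over control against GC content (left, linear axis) and length (right, log axis) of the longest annotated transcript; black line and grey band are the median and the middle of the range (25th to 75th percentile) of protein-coding genes in quintiles, red points the 8 genes examined here, blue points the other pathway genes. The median falls from 0.38 to -0.42 across GC quintiles, with Idi1 and Hmgcs1 above 0 on the left and Srebf1 and Srebf2 below 0 on the right.

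With this trend removed, the log2 fold change was -0.10 for Srebf2 (SE 0.24; edgeR, adjusted p = 0.913) and -0.020 for Srebf1 (SE 0.22; adjusted p = 0.987), and 0 of the 8 genes passed the study's threshold. Hmgcs1 moved to 0.051, Idi1 to 0.23, Fdps to -0.19, Fdft1 to -0.38 and Sqle to -0.0064, while Insig1 stayed at 0.31. The median of the 8 genes became -0.013 and that of the 12 genes of SREBP and its processing -0.062. Scap changed sign, to 0.048 (adjusted p = 0.957). Mbtps1 shrank from -1.13 to -0.75 (SE 0.23; adjusted p = 0.154) and Acly from -0.92 to -0.48 (adjusted p = 0.344), so that both lost their adjusted call. Over all 15559 genes in this fit, 98 were called higher and 19 lower, so that most adjusted calls were lost and not only those of these genes. Fgfr1, the deleted gene, also shrank, from -1.37 to -0.74 (SE 0.29, edgeR, adjusted p = 0.270). Ebp was at 0.73 (adjusted p = 0.211) and Rnf139 at 0.98 (adjusted p = 0.284). The correction takes out every difference that runs with GC content or length, whatever its source, so a difference in Srebf1 and Srebf2 that shares this trend cannot be told apart from it.

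Markers of the cell types in the piece were summed in each sample. Dental epithelium and ameloblast genes (10 of 10 tested, led by Amelx) summed to 86320, 98390 and 122300 CPM in control and 35010, 34030 and 73240 CPM in mutant samples, lower in every mutant sample, although Odam, one of them, rose (log2 fold change 1.76; edgeR, adjusted p = 0.0466). Mesenchyme genes (7 of 7, led by Vim) summed to 2092, 2049 and 1423 against 2337, 1739 and 1587 CPM, odontoblast genes (3 of 3, led by Dspp) to 2628, 8277 and 1819 against 2470, 3846 and 3606 CPM, and osteoblast genes (3 of 3, led by Bglap) to 6816, 4822 and 3928 against 5749, 6958 and 5616 CPM. The groups overlapped in all 3. Skeletal muscle genes (6 of 6, led by Acta1) stood out in single samples, at 8.04, 2491 and 25.7 CPM in control and 5373, 126 and 884 CPM in mutant samples.

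Markers of myelinating Schwann cells, which make much cholesterol, were low. These genes (6 of 7 tested, led by Pmp22) summed to 150, 126 and 142 CPM in control and 182, 126 and 104 CPM in mutant samples, and the defining gene Sox10 was listed at 0 in mutant samples 2 and 3. Of 6 adipocyte genes 1, Adipoq, was in the table, with 0, 13 and 12 counts in control and 0 in each mutant sample. Erythroid genes (5 of 6 tested, led by Hbb-bs) summed to 823, 822 and 380 against 1289, 926 and 2559 CPM, higher in every mutant sample, although Hba-a1, which can share reads with its near-identical copy Hba-a2, fell (log2 fold change -2.04; edgeR, adjusted p = 0.046). Macrophage genes (5 of 5, led by Csf1r) summed to 142, 187 and 61.7 against 134, 93.9 and 117 CPM, and endothelial genes (5 of 5, led by Cdh5) to 153, 237 and 154 against 143, 133 and 123 CPM. Within the endothelial list, Cdh5 (log2 fold change -1.02) and Pecam1 (-0.70) were lower in every mutant sample, without passing the adjusted test. Kdr (-0.087), Emcn (0.053) and Cldn5 (0.23) overlapped, and the median of the list was -0.087. The sums of the epithelial, erythroid and endothelial lists run with genotype. The part of these differences in the values of Srebf1, Srebf2 and the other genes was not tested.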

How the data were processed

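RNA from 3 control and 3 mutant incisors was sequenced as single reads. The authors trimmed and aligned them to mm10 in Partek Flow (TopHat2 2.0.8 in the submitters' processing notes) and deposited estimated counts per gene, not normalized. The counting model, the annotation and the use of strand are not given in the sources used here. A second deposited table, with the authors' p-values and fold values of their own comparison, was not used.

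Counts were rounded to whole numbers and tested with edgeR 4.0.16 in R 4.3.3 (quasi-likelihood, two-sided, genotype as the only term, upper-quartile scaling as in the study, edgeR's filter with minimum count 10 and minimum total 15, Benjamini-Hochberg adjustment over all genes tested). Standard errors are approximate, from the fold change and its F statistic. The test and the length correction were also run on simulated data, with results not given here. Transcript lengths, GC content and coordinates came from GENCODE M21 on GRCm38 (18637 symbols matched directly, 4 by synonym, 419 not matched) and promoters from RefSeq (GRCm38.p6). The length and GC trend was fitted with mgcv 1.9.3 on protein-coding genes averaging 50 counts or more, centred, and used as an offset. DESeq2 1.42.0, TMM, total counts, other filters, thinned control counts, the replicate number as a block and each sample left out were the alternatives.

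The members and the gene lists were chosen with earlier results of these data known. Besides the 8 genes, Scap and Fgfr1 were named, then in each list up to 3 genes with the smallest p in each direction, and the 5 genes most like the enzyme profile. Lss, Acaca, Faf2, Mbtps2, Pdss1, Odam, Sox10, Hba-a1 and Adipoq were named after their values were seen. Some genes of the lists are counted with them but not reported here by name. Nothing in the labels says that samples came from separate animals. The p-values therefore set the genotype difference against the spread between these samples, which may not be that between animals. Limits from counts cover counting error only. Total counts ran from 5276557 to 32712448 per sample.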

Additional observations from a re-analysis of the deposited data

How the results depend on the processing

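The directions of all 8 genes were kept under all 15 alternatives. After the length and GC correction, several log2 fold changes were smaller in size than their SEs, so a kept sign says little there. These were Sqle (-0.0064, SE 0.33), Srebf1 (-0.020, SE 0.22), Hmgcs1 (0.051, SE 0.21), Srebf2 (-0.10, SE 0.24), Idi1 (0.23, SE 0.32) and Fdps (-0.19, SE 0.26). The number with an adjusted p under 0.05 was 0 in edgeR and under the other alternatives but 1 (Srebf2) with total counts only (adjusted p = 0.0442) and 1 with DESeq2 (adjusted p = 0.0260); the adjusted p of Srebf2 ran up to 0.913, and 2 of the 8 genes had an unadjusted p under 0.05. Over all genes tested, the median log2 change moved with total counts only to -0.30, with TMM to -0.13 and with the replicate block to -0.27, from -0.040. With total counts only, 4 of the 8 genes were lower at the study's threshold, 5 pathway genes passed the adjusted test, 21 were lower and 1 higher at the study's threshold, and 5 of the 21 enzymes passed it in either direction. The adjusted test called 4 pathway genes with DESeq2, and 0 without the filter on low counts, with a mean of at least 50 counts, with thinned control counts, after the length and GC correction and with protein-coding genes only. After the length and GC correction, 0 of the 8 genes were lower at the study's threshold. Of the pathway genes, 2 were lower (Mbtps1 and Nus1) and 3 higher, and Nus1 had not passed in the main fit. TMM and DESeq2 each gave 3 enzymes, 3 of the 8 genes lower and 13 pathway genes lower at that threshold.

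With each sample left out, the genes lower at the study's threshold ranged from 0 to 2 of the 8 and from 2 (without control replicate 3) to 11 of the pathway, those higher from 1 (without mutant replicate 1) to 5 (without mutant replicate 3) of the pathway, enzymes from 1 to 3, and adjusted calls in the pathway were 0 each time. Signs reversed for Scap after the length and GC correction (0.048), for Mbtps2 without mutant replicate 1 (0.24) and for Insig2 with total counts only (-0.061), and Mbtps2 ran down to -1.71 without mutant replicate 3. The length and GC correction also turned the sign of Pdss1 (-0.24), Lipa (-0.19) and Elovl5 (-0.10), among other genes of the lists. The cause was not tested.

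Same-numbered samples did not deviate together (correlations of 0.047, 0.0094 and 0.055), so the numbers are not taken as pairs. With the replicate block, 1 of the 8 genes (Idi1) was higher and 3 (Srebf1, Srebf2 and Fdft1) were lower at the study's threshold, 4 pathway genes were higher and 13 lower, 4 enzymes passed it and 1 pathway gene (Mbtps1) passed the adjusted test. Depth limits low genes most: a gene at 0 in mutant replicate 1 may lie as high as 0.655 CPM, against 0.0874 CPM in control replicate 1.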
